A study of Homo sapiens with 12 samples.

Results

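The histone genes were taken as the protein-coding rows of the deposited count table whose symbol starts with HIST1H, HIST2H, HIST3H, HIST4H, H2AF, H1F or H3F. This rule gave 88 rows of 58233 genes, with 87 different symbols, since HIST1H3D is listed under more than 1 identifier. Of the 88 rows, 72 are replication-dependent genes (the HIST genes) and 16 are replication-independent genes (the H2AF, H1F and H3F genes). RNA came from HCT116, a human colorectal carcinoma line, in 4 groups with 3 libraries each. Parental HCT116 Tet-OsTIR1 cells carry the gene for the rice F-box protein TIR1, under a tetracycline-inducible promoter, at both AAVS1 alleles. SDS22-degron cells were derived from them by tagging both alleles of PPP1R7, which encodes the PP1 partner SDS22, with mAID-mClover. Since the degron line was raised from drug-selected colonies, an effect of the tag and a property of the selected cells cannot be told apart between the lines. Each line was left untreated or received 2 µg/ml doxycycline (Dox) and 500 µM of the auxin IAA for 48 h, which in the degron line directs the tagged SDS22 protein to the proteasome. Parental cells with Dox/IAA received the same agents but have no tagged protein.

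Histone proteins package DNA into nucleosomes. Replication-dependent histone genes lie in clusters and supply new histones during S phase. Their mRNAs usually end just after a conserved stem-loop, which is bound by the protein SLBP and replaces the poly-A tail. Replication-independent genes encode histone variants and linker histones, are scattered over the genome, and give ordinary polyadenylated mRNAs throughout the cell cycle. Only RNA selected by its poly-A tail was sequenced, so reads on replication-dependent genes come mainly from whatever fraction of these transcripts is polyadenylated or carried over. They do not measure the total histone mRNA of the cells.

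The 16-base stem-loop is shown here because it separates the gene classes. It was searched as a perfect stem of 6 paired bases around a loop of 4 bases, within 100 bases after the stop codon of annotated coding transcripts. It was found in 57 of the 63 replication-dependent genes with such a transcript. Among the replication-independent genes it was found only in H2AFX, of the 16 searched. The forms are given in DNA letters, 5′ to 3′, with the paired stem in capitals:
Form in 35 replication-dependent genes: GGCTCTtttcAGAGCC
Form in 9 replication-dependent genes: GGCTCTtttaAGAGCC
Form in 8 replication-dependent genes: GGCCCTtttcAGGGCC
H2AFX form: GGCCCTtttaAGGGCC
The form of 35 genes was that of HIST2H2BE, HIST1H2AC and HIST1H1C. In H2AFX, the gene of the H2A.X variant that is phosphorylated at DNA breaks, the longest transcript continued for 1024 bases after the stem-loop and had a polyadenylation signal near its end. No stem-loop was found in HIST1H3E or HIST1H2AG among the replication-dependent genes that could be tested.

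Most replication-dependent genes were hardly detected. Of the 72, 25 had no count in any library, 33 had between 1 and 74 counts over all 12 libraries (median 14), and 14 passed the filter on low counts and were tested. A count of 0 allows up to 3 counts per library, between 0.205 and 0.247 CPM (counts scaled to the size of the library), for counting error only. Of the 16 replication-independent genes, 11 were tested and 5 had no count, namely H1FNT, H1FOO, H2AFB1, H2AFB2 and H2AFB3, genes known from germ cells. Of the germ-cell histones among the replication-dependent genes, HIST1H2AA, HIST1H2BA and HIST3H3 had no count, and HIST1H1T had 6 counts in all.

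The libraries held 12133915 to 14657508 counts (median 12662965), and 16657 genes were tested. Epithelial markers were expressed in every library, with EPCAM between 263 and 306 CPM. PTPRC, PECAM1 and CD68, which mark blood and endothelial cells, stayed at or under 0.0824 CPM, while the epithelial gene VIL1 also stayed at or under 0.153 CPM. The collagen gene COL1A1 was at 9.88 to 31.7 CPM, and its part in the results was not tested. The PPP1R7 mRNA lay between 40.1 and 51.15 CPM in the 12 libraries and was called in none of the comparisons. The degron acts on the protein, so this transcript does not check the loss of SDS22. No library stood apart from its group.

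The tested replication-dependent genes were a selected subset. By histone, 7 of 18 H2B genes were tested, 3 of 17 H2A genes, 2 of 16 H3 genes, 1 of 6 H1 genes and 1 of 15 H4 genes. Of the 14 tested genes, 7 had more than 1 exon, against 7 of the 58 not tested, and their median length was 1362 against 423 bases. Their median GC content was 47.5% against 59.2%. The longest annotated 3′ untranslated region exceeded 100 bases in 10 of the 14 tested genes and in 3 of the 49 untested genes with a coding transcript, HIST1H3D, HIST2H2BF and HIST3H2BB. No gene had a value between 84 and 272 bases. These regions are those of GENCODE transcripts, and some counted rows were longer than these transcripts. HIST1H3G, not tested, had a region of 56 bases and a counted row of 2411 bases. For HIST1H2AG, which was tested, they were 71 and 2250 bases, so the split describes the GENCODE transcripts only. A stem-loop was found in 12 of the tested genes, and only 4 of these had more than 100 bases after it. The median was 5 bases. HIST2H2BE, 1 of the 4, had an annotated 3′ untranslated region of 1801 bases, of which 1729 followed the stem-loop, and HIST3H2A had 390 bases after it. The longest region of HIST1H2AC had 1039 bases, but at most 6 bases followed its stem-loop in any transcript. In HIST1H1C, with the second highest level in CPM among the 14 tested genes, the annotated transcript ended 4 bases after the stem-loop. A longer row also collects more reads, so these shares describe which genes could be tested and were given no test.

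**Figure D1:**
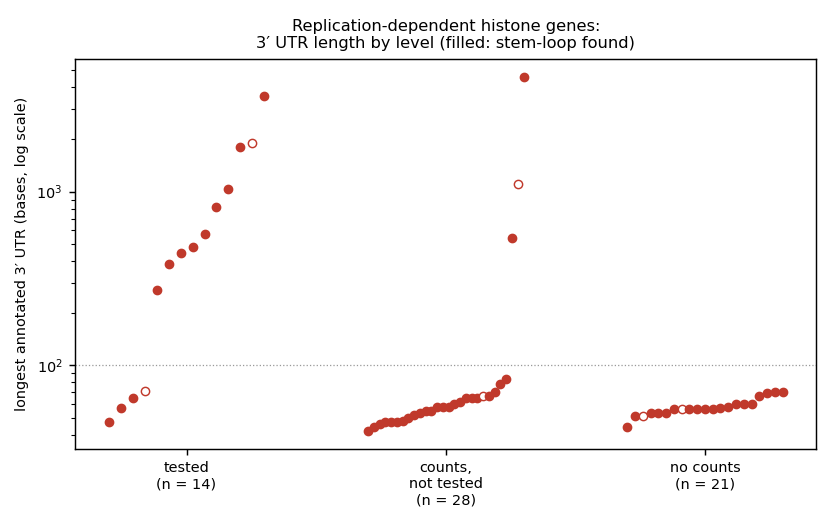
Longest annotated 3′ untranslated region in bases (log scale) of the 63 replication-dependent histone genes with a coding transcript, split into tested genes, genes with counts that were not tested, and genes with no count. Filled points are genes with the stem-loop in any coding transcript, which need not be the transcript with the longest region. The dotted line marks 100 bases. Of the 14 tested genes 10 lie above the line, against 3 of the 49 others. Lengths are those of GENCODE transcripts, and some counted rows of tested and untested genes are longer.

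The short motifs searched around the start site were more frequent in replication-dependent promoters than in all promoters, whether the genes were tested or not. RefSeq promoters on GRCh38.p14, from 250 bases before to 50 bases after the start, were matched for 81 of the 88 rows. The octamer ATTTGCAT, searched on both strands, was present in 73.5% of the 34 promoters of replication-dependent H2A and H2B genes. It was in 37.3% of the 67 replication-dependent promoters, against 1.83% of all 27305 promoters of the same length. Some H2A and H2B windows overlap, as for HIST1H2AA and HIST1H2BA, which are transcribed in opposite directions. The same octamer is then counted for both genes, so the 34 promoters are not all separate sequences. The letters CCAAT were found in 85.1% of replication-dependent promoters and in 35.4% of all promoters, and TATAAA in 67.2% against 12.3%. Of the 9 matched promoters of tested replication-independent genes, 77.8% held CCAAT, 44.4% TATAAA and 11.1% the octamer. CCAAT was thus frequent in both histone classes. The octamer was in 50% of the promoters of tested and 34.0% of those of untested replication-dependent genes, so it did not by itself mark the detected genes. All 25 replication-dependent promoters with the octamer belong to H2A and H2B genes, so these 2 shares also depend on the histone types in each set. TTTGAA was found in 35.8% of replication-dependent promoters against 15.9% of all, and TTTCGCG, searched as an E2F-type motif, in 19.4% against 1.29%. A match is a description of the letters in these windows.

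The promoters of HIST1H2AC and HIST2H2BE are shown because these genes were called higher in all pairwise comparisons. That of H2AFX is shown because it is the variant gene with a stem-loop and was lower in treated SDS22-degron cells. Capitals mark the letters CCAAT and the letters TATAAA on either strand, the octamer in the HIST genes, and TTTGAA in H2AFX:
HIST1H2AC promoter, chr6:26123922-26124221, plus strand: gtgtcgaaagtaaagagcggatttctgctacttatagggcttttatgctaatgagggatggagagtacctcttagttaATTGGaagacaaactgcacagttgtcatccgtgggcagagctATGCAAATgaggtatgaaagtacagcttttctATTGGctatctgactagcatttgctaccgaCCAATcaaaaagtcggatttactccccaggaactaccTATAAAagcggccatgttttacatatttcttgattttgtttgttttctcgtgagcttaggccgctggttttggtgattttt
HIST2H2BE promoter, chr1:149886633-149886932, minus strand: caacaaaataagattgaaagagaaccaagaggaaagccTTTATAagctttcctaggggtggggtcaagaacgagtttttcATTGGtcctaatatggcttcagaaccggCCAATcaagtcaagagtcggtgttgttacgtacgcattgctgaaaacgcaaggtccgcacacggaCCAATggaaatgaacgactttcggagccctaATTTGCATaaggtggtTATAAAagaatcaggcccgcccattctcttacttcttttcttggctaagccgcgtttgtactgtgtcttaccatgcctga
H2AFX promoter, chr11:119095416-119095715, minus strand: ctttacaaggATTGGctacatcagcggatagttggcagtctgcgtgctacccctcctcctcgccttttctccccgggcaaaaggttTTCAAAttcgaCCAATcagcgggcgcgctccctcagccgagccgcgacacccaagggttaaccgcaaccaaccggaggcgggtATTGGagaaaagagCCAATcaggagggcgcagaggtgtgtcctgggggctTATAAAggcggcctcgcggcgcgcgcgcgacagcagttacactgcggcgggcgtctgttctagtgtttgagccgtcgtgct
The HIST1H2AC window overlaps that of HIST1H2BC, which is transcribed in the other direction, and both hold the same octamer. The H2AFX promoter held no octamer but 4 CCAAT matches and a TATAAA match.

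Over the 4 groups, the summed level of the 14 tested replication-dependent genes rose with both the line and the treatment, while that of the replication-independent genes stayed within a narrow range. In untreated parental cells the replication-dependent sum was 49.5, 52.1 and 66.9 CPM in the 3 libraries. It was 94.8, 92.2 and 106.6 CPM in parental cells with Dox/IAA and 81.1, 100.1 and 115.2 CPM in untreated SDS22-degron cells. In SDS22-degron cells with Dox/IAA it reached 149.9, 158.2 and 186.5 CPM. The middle groups overlapped each other, untreated parental libraries lay below all others, and treated SDS22-degron libraries lay above all others. Group means were 56.2 ± 9.39, 97.9 ± 7.68, 98.8 ± 17.1 and 164.9 ± 19.1 CPM (SD, n = 3), a 2.94-fold difference between the extremes.

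The 11 tested replication-independent genes summed to 2681 ± 174, 2909 ± 91.0, 2767 ± 68.0 and 2592 ± 129 CPM in the same order (SD, n = 3). The replication-dependent genes thus made 2.06 ± 0.416% of the histone CPM in untreated parental cells, 3.26 ± 0.322% and 3.45 ± 0.652% in the middle groups, and 6.01 ± 0.953% in treated SDS22-degron cells. Per kilobase of gene length, the median level of the tested genes was 2.24 CPM in the replication-dependent class (0.31 to 30.5) and 87.3 CPM in the replication-independent class (0.183 to 310). HIST3H2A, HIST1H1C and HIST1H2AC together made 54.0% of the replication-dependent CPM. The replication-independent sum held changes in opposite directions. From untreated parental to treated SDS22-degron cells, the mean of H1F0 went from 508.4 to 911.8 CPM. That of H2AFZ went from 340.3 to 144.9 CPM and that of H2AFX from 308.2 to 191.6 CPM. In bulk RNA, a larger share of cells in another phase of the cycle and a change in RNA per cell cannot be told apart.

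RNA classes that do not carry ordinary poly-A tails were followed beside the histones. The summed level of snRNA, snoRNA, scaRNA and misc_RNA genes was 40.7 ± 3.31, 37.6 ± 5.70, 42.8 ± 3.96 and 37.1 ± 7.16 CPM in the 4 groups (SD, n = 3), so it did not rise with the replication-dependent histones. The 2 mitochondrial rRNA genes summed to 4564 ± 673, 5205 ± 1080, 7458 ± 356 and 9540 ± 1120 CPM, and did rise in the degron line. The library of number 3 had the highest replication-dependent sum in all 4 groups. The part of either in the histone results was not tested. The 58 untested replication-dependent genes together gave 3.60 ± 0.43, 3.84 ± 0.918, 5.75 ± 1.20 and 5.79 ± 0.957 CPM, which was 1.01-fold with Dox/IAA in SDS22-degron cells and 1.07-fold in parental cells.

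**Figure D2:**
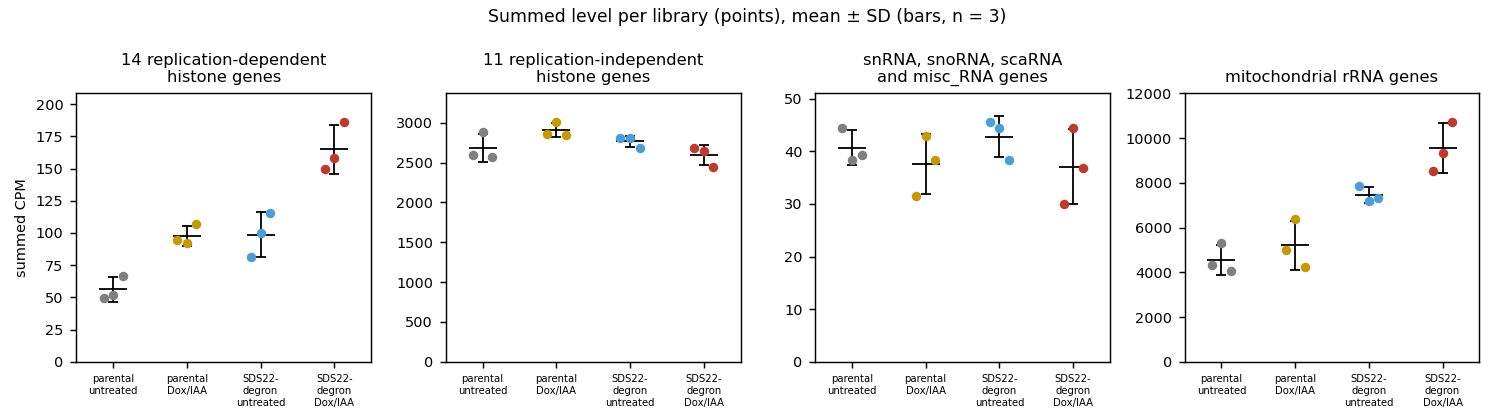
Summed CPM per library (points) with mean ± SD (bars, n = 3) in the 4 groups, on linear axes from 0, for tested replication-dependent and replication-independent histone genes, small non-coding RNA genes and mitochondrial rRNA genes. The replication-dependent sum goes from 56.2 CPM in untreated parental cells to 164.9 CPM in treated SDS22-degron cells, and the replication-independent sum stays between 2592 and 2909 CPM.

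Treated SDS22-degron cells were first compared with treated parental cells. This contrast holds the difference between the untreated lines as well as any effect of SDS22 loss. Of the 14 replication-dependent genes 8 were higher and 0 lower (edgeR quasi-likelihood test, Benjamini-Hochberg adjusted p under 0.05), where 21.8% of all tested genes were higher and 23.1% lower. Their median log2 fold change was 0.85, against -0.01 over all genes. Of the 11 replication-independent genes 0 were higher and 4 lower, with a median of -0.14.

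HIST2H2BE, an H2B gene of the cluster on chromosome 1 (chr1:149884459-149886652), had the largest log2 fold change of the class. It had 114, 131 and 150 counts in treated SDS22-degron cells and 44, 33 and 42 in treated parental cells. Untreated SDS22-degron libraries had 46, 49 and 66 counts and untreated parental libraries 15, 14 and 15. Treated SDS22-degron libraries were thus above all others, untreated parental libraries were below all others, and the difference between the treated lines was 1.75 ± 0.183 (log2, SE; adjusted p = 4.98e-07). HIST1H2AC, an H2A gene of the large cluster on chromosome 6 (chr6:26124145-26139116), had 26.5, 32.4 and 38.5 CPM in treated SDS22-degron cells and 13.7, 12.25 and 17.5 CPM in treated parental cells. It was at 15.7, 18.5 and 19.9 CPM in untreated SDS22-degron cells and 9.45, 7.66 and 10.3 CPM in untreated parental cells. The treated lines did not overlap and differed by 1.16 ± 0.146 (log2, SE; adjusted p = 4.08e-06).

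The other genes higher in treated SDS22-degron cells encode H3, H2A and H2B. HIST1H3H was higher by 1.37 (adjusted p = 4.82e-05), HIST1H2BE by 1.25 (adjusted p = 0.00158), HIST1H3E by 0.98 (adjusted p = 5.92e-05) and HIST1H2BD by 0.92 on the log2 scale (adjusted p = 5.9e-05). HIST3H2A, the highest replication-dependent gene in CPM, was at 28.4 to 30.4 CPM against 14.3 to 19.6 CPM, a log2 difference of 0.79 (adjusted p = 0.000256). HIST1H2BC was higher by 0.95 (adjusted p = 0.0173), from 14 to 16 counts per library up to 27 to 30, a call lost without replicate 1 of treated parental cells (adjusted p = 0.0561). The libraries of the treated lines did not overlap in 11 of the 14 genes, all higher in SDS22-degron cells, where 25.7% of all genes were higher and 27.2% lower by this criterion. HIST1H1C, the gene of linker histone H1.2, was among the 6 that did not pass the test, with a log2 difference of 0.02 (95% interval -0.30 to 0.33).

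**Figure D3:**
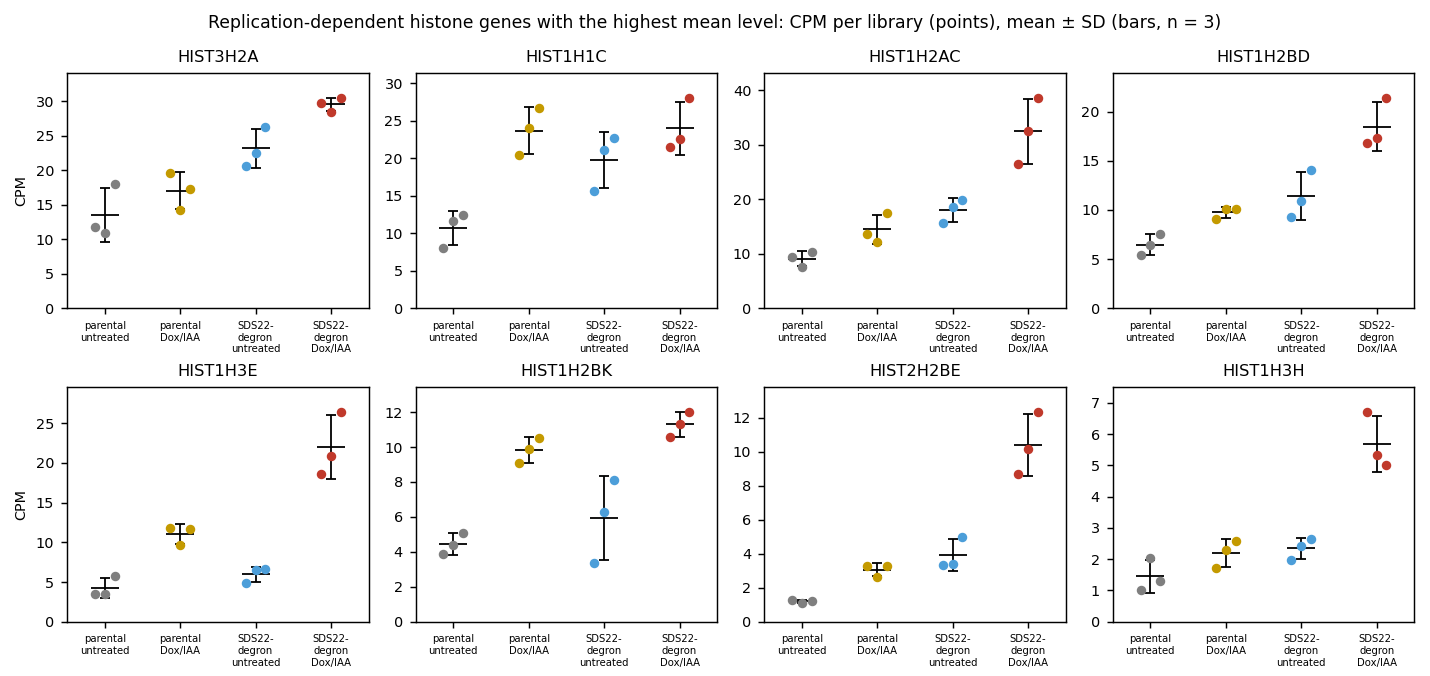
CPM per library (points) and mean ± SD (bars, n = 3) of the 8 replication-dependent histone genes with the highest mean level, on linear axes from 0. All of them except HIST1H1C are highest in treated SDS22-degron cells with no overlap. For HIST1H2BK the margin is small, with at least 10.6 CPM there and up to 10.54 CPM in treated parental cells. HIST1H1C is low in untreated parental cells and overlaps between the other 3 groups.

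Replication-independent genes that were lower in treated SDS22-degron than in treated parental cells were H2AFZ, H2AFX, H1FX and H2AFY2. H2AFX had 205.4, 178.3 and 191.2 CPM in treated SDS22-degron cells, and in the other 9 libraries it lay between 283.1 and 377.1 CPM. There was no overlap, and the log2 difference between the treated lines was -0.78 ± 0.087 (SE; adjusted p = 1.06e-06). H2AFZ, the gene of the variant H2A.Z, had 163.8, 141.7 and 129.2 CPM in treated SDS22-degron cells and 242.6, 309.9 and 251.5 CPM in treated parental cells. All 3 treated SDS22-degron libraries lay below the other 9, and the log2 difference was -0.89 ± 0.122 (SE; adjusted p = 1.15e-05). Reads of H2AFZ can be shared with its processed copies H2AFZP3 and H2AFZP1, which were counted at a mean of 111 and 20.8 CPM and were lower too, by -0.86 (adjusted p = 2.29e-07) and -0.69 (adjusted p = 0.000102).

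H1FX, a linker histone gene, and H2AFY2, the gene of macroH2A2, were lower in the degron line whatever the treatment. H1FX had 114.8, 114.6 and 111.5 CPM in treated and 110.5, 113.2 and 117.7 CPM in untreated SDS22-degron cells, against 144.7 to 149.5 and 135.8 to 177.6 CPM in the parental groups. The lines did not overlap, and the log2 differences were -0.37 (adjusted p = 0.000974) with and -0.41 (adjusted p = 0.000809) without Dox/IAA. For H2AFY2 they were -0.32 (adjusted p = 0.00481) and -0.32 (adjusted p = 0.00746). Both genes overlap a gene with counts on the other strand, H1FX-AS1 and AIFM2, as H2AFZ, H2AFY and H3F3B also do with other genes.

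**Figure D4:**
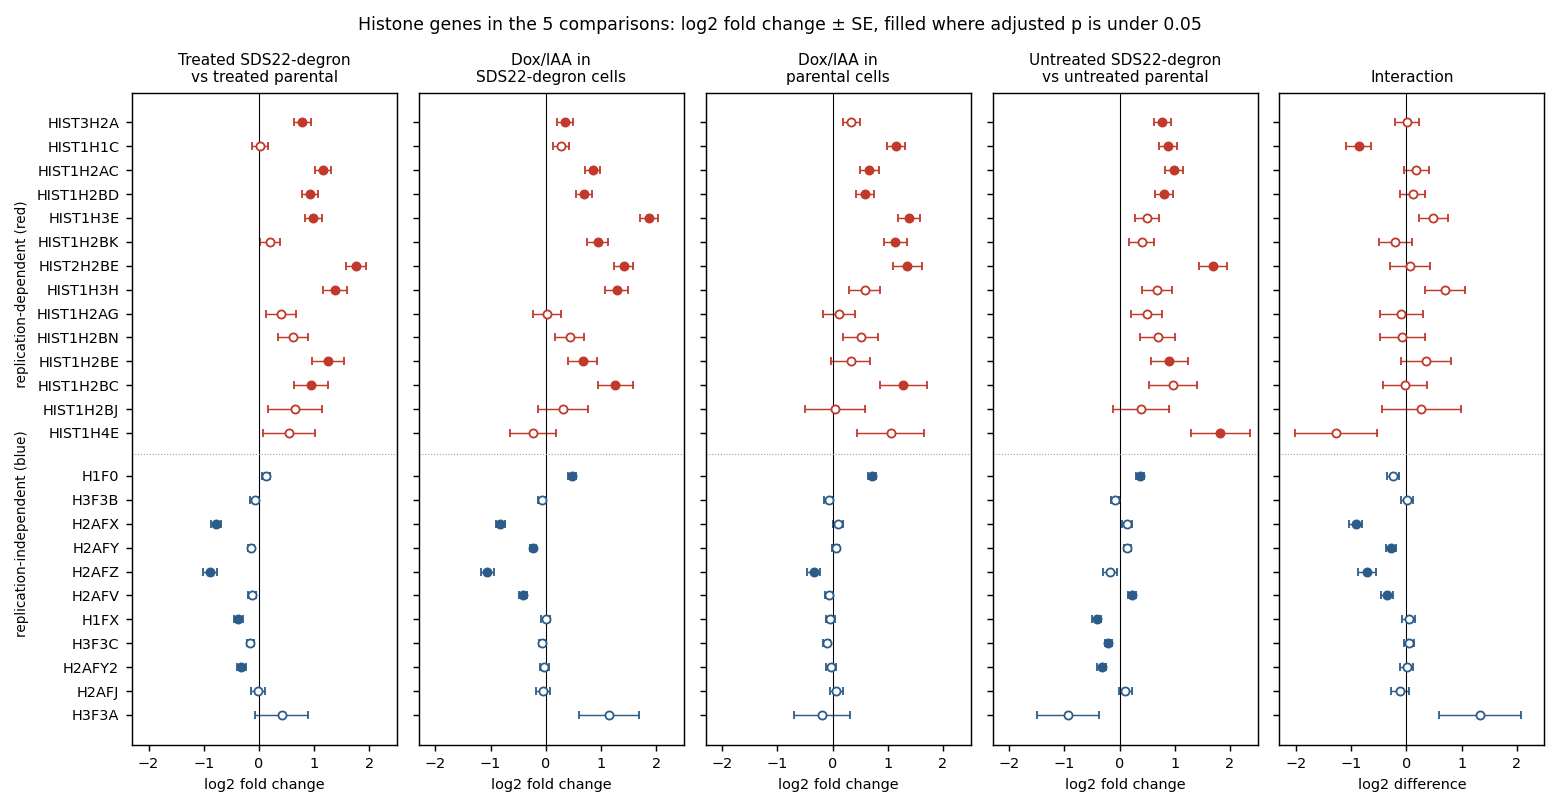
Log2 fold change ± SE of the 14 replication-dependent (red) and 11 replication-independent (blue) tested histone genes in the 5 comparisons, in order of mean CPM within each class. Filled points have an adjusted p under 0.05, with 8, 9, 7 and 7 replication-dependent genes filled in the pairwise comparisons and all of them to the right of 0.

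The effect of Dox/IAA was then compared within each line. These comparisons share libraries with the one above and with each other, so their lists are not independent. In SDS22-degron cells 9 of the 14 replication-dependent genes rose and 0 fell with Dox/IAA, where 26% of all genes rose and 25.5% fell, and the median log2 fold change was 0.68 against 0.00 over all genes. In parental cells, which have no tagged SDS22, 7 rose and 0 fell, where 15.9% of all genes rose and 15.7% fell, with a median of 0.62. Of the 11 replication-independent genes, 1 rose and 4 fell in SDS22-degron cells, and 1 rose and 1 fell in parental cells.

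Low-count genes kept out by the filter did not all share this direction. HIST2H2AC, an H2A gene named here after its values were seen, had 8, 10 and 12 counts in untreated and 2, 4 and 3 in treated SDS22-degron cells. Parental libraries had 8, 4 and 12 counts without and 2, 4 and 5 with Dox/IAA. The groups did not overlap in SDS22-degron cells, while they did in parental cells. In SDS22-degron cells HIST2H2AC fell by 1.58 (log2, adjusted p = 0.0189) when no filter was used, and it was also called lower in 9 of the 12 fits that left out 1 library. HIST1H1E, a linker histone gene with at most 9 counts per library, fell by 2.41 (adjusted p = 0.0126) without a filter.

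HIST1H3E, an H3 gene on chromosome 6 (chr6:26224199-26227473), had the largest log2 fold change of the class with Dox/IAA in both lines. It went from 4.885, 6.465 and 6.605 CPM in untreated to 18.6, 20.8 and 26.4 CPM in treated SDS22-degron cells, and from 3.545, 3.44 and 5.77 to 11.85, 9.64 and 11.7 CPM in parental cells. Treated and untreated libraries did not overlap in either line. The log2 fold change was 1.87 ± 0.170 (SE; adjusted p = 6.74e-08) in SDS22-degron cells and 1.38 ± 0.196 (adjusted p = 5.3e-05) in parental cells. The untreated lines overlapped for this gene (0.49, adjusted p = 0.0906). In parental cells HIST2H2BE changed almost as much (1.35 ± 0.267, log2, SE), so the order of these genes there is not settled.

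Of the 7 tested H2B genes, 5 were called higher with Dox/IAA in SDS22-degron cells, and HIST1H2BJ and HIST1H2BN did not pass the test in any comparison. HIST2H2BE rose by 1.41 (adjusted p = 2.23e-06) in SDS22-degron and by 1.35 (adjusted p = 0.000888) in parental cells. HIST1H2BC rose by 1.26 (adjusted p = 0.00269) and 1.28 (adjusted p = 0.0287), on 5 to 30 counts per library. Its call in parental cells was lost without any 1 of the 3 untreated replicates or treated replicate 3 (adjusted p up to 0.0876). HIST1H2BD, which overlaps LARP1P1, rose by 0.70 (adjusted p = 0.000509) and 0.58 (adjusted p = 0.013), the latter lost without untreated parental replicate 1 (adjusted p = 0.0709). HIST1H2BE rose by 0.67 (adjusted p = 0.038) in SDS22-degron cells and had a change of 0.32 (adjusted p = 0.544) in parental cells. Its call was lost without untreated parental replicate 1 or 2, untreated SDS22-degron replicate 2 or 3, or treated SDS22-degron replicate 1 or 3 (adjusted p up to 0.192). HIST1H2BK rose by 0.94 (adjusted p = 0.000615) and 1.14 (adjusted p = 0.000604), from 3.35 to 8.12 CPM in untreated SDS22-degron cells to 10.6 to 12.0 CPM, and from 3.88 to 5.11 CPM to 9.07 to 10.5 CPM in parental cells. Only 61.0% of its 75-base windows are unique among annotated transcripts, so its reads may be shared with a near copy.

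Of the H2A genes, HIST1H2AC rose by 0.85 (adjusted p = 6.57e-05) in SDS22-degron cells and by 0.67 (adjusted p = 0.0054) in parental cells. HIST3H2A rose by 0.35 (adjusted p = 0.0457) in SDS22-degron cells and had a change of 0.34 (adjusted p = 0.114) in parental cells. The call in SDS22-degron cells was lost when any of 8 of the 12 libraries was left out, all but untreated parental replicates 2 and 3, treated parental replicate 2 and untreated SDS22-degron replicate 3 (adjusted p up to 0.175). HIST1H3H rose by 1.28 (adjusted p = 5.6e-05) in SDS22-degron cells, from 1.97 to 2.66 CPM to 5.02 to 6.71 CPM. In parental cells its change was 0.58 (adjusted p = 0.12). HIST1H2AG, with 18 to 48 counts per library, changed by 0.02 (95% interval -0.52 to 0.55) and 0.11 (95% interval -0.51 to 0.72).

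HIST1H1C rose with Dox/IAA in parental cells and did not pass the test in SDS22-degron cells. It had 8.10, 11.65 and 12.4 CPM in untreated parental cells and 20.5, 24.0 and 26.7 CPM with Dox/IAA. In SDS22-degron cells it had 15.6, 21.2 and 22.7 CPM without and 21.5, 22.5 and 28.0 CPM with Dox/IAA. Untreated parental libraries were below all others, which overlapped. The change with Dox/IAA was 1.14 ± 0.164 (log2, SE; adjusted p = 5.93e-05) in parental and 0.27 ± 0.151 (adjusted p = 0.138) in SDS22-degron cells.

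H1F0, the gene of the linker histone H1.0 that accumulates in resting and differentiated cells, was the replication-independent gene that rose in both lines. It had 537.7, 512.9 and 474.8 CPM in untreated parental cells and 857.5, 789.5 and 857.3 CPM with Dox/IAA. In SDS22-degron cells it had 693.8, 660.6 and 612.0 CPM without and 893.8, 998.3 and 843.4 CPM with Dox/IAA. Untreated parental libraries were the lowest and treated libraries of the lines overlapped. H1F0 rose by 0.72 (adjusted p = 3.01e-06) in parental and 0.48 (adjusted p = 4.21e-05) in SDS22-degron cells, and was higher by 0.37 (adjusted p = 0.00143) in untreated SDS22-degron than in untreated parental cells.

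The genes that fell with Dox/IAA in SDS22-degron cells were H2A variants. H2AFZ fell by 1.06 (adjusted p = 1.04e-06), from 317.4, 323.3 and 265.0 CPM. In parental cells H2AFZ fell by 0.34 (adjusted p = 0.0349), with overlapping libraries, and this call was lost without untreated replicate 2 or treated replicate 1 or 3 (adjusted p up to 0.221). H2AFX fell by 0.82 (adjusted p = 3.98e-07) in SDS22-degron cells and changed by 0.10 (adjusted p = 0.419) in parental cells. H2AFV, the gene of the second H2A.Z protein, fell by 0.41 (adjusted p = 0.000115), from 182.3, 176.0 and 170.7 CPM to 143.8, 126.0 and 128.0 CPM. H2AFY, the gene of macroH2A1, fell by 0.23 (adjusted p = 0.00397).

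H3F3B, which encodes the variant H3.3, was at 629.5 to 845 CPM over the 12 libraries and did not pass the test in any comparison. Its log2 fold change with Dox/IAA was -0.07 in both lines, with 95% intervals from -0.23 to 0.09. H3F3C, which shares sequence with H3F3B, and H2AFJ, at 9.37 to 12.45 CPM, did not pass the test for Dox/IAA in either line. H3F3A, the other H3.3 gene, was listed with only 2 to 14 counts per library, 89 in all. Its processed copies H3F3AP6 and H3F3AP4 had 300 and 140 counts in all. Of its 75-base windows 83.0% are unique among annotated transcripts. Its level is thus uncertain, and the part of shared reads in it was not tested.

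**Figure D5:**
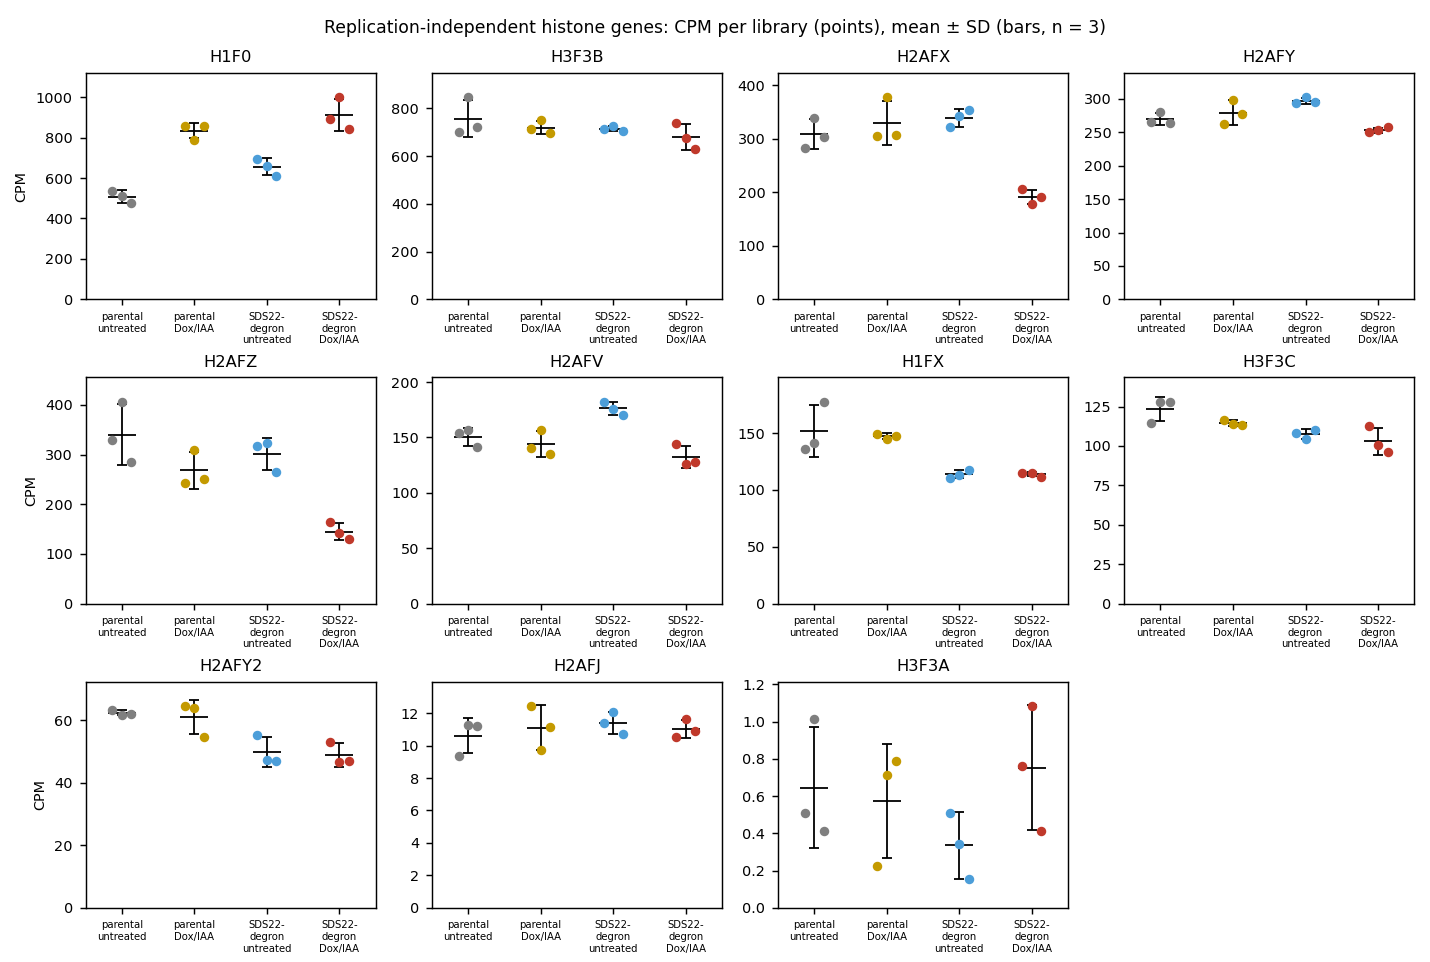
CPM per library (points) and mean ± SD (bars, n = 3) of the 11 tested replication-independent histone genes, on linear axes from 0, in order of mean level. H2AFX and H2AFZ are lowest in treated SDS22-degron cells with no overlap, H1F0 is higher with Dox/IAA in both lines, and H1FX and H2AFY2 differ by line.

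The lines already differed before treatment. In untreated SDS22-degron cells 7 of the 14 replication-dependent genes were higher than in untreated parental cells and 0 lower, where 13.2% of all genes were higher and 15% lower, and the median log2 difference was 0.79. HIST2H2BE was higher by 1.69 (adjusted p = 6.73e-05), HIST1H2AC by 0.98 (adjusted p = 0.000182), HIST1H1C by 0.88 (adjusted p = 0.000586), HIST1H2BD by 0.81 (adjusted p = 0.00117) and HIST3H2A by 0.78 (adjusted p = 0.000923). HIST1H2BE was higher by 0.90 (adjusted p = 0.0469), a call lost without 1 of 7 libraries, namely each untreated parental replicate, treated parental replicates 2 and 3 and untreated SDS22-degron replicates 1 and 3 (adjusted p up to 0.214). HIST1H4E, an H4 gene with 2 to 4 counts per library in parental and 8 to 15 in SDS22-degron cells, was higher by 1.83 (adjusted p = 0.0162), a call lost without untreated parental replicate 2 or untreated SDS22-degron replicate 2 or 3 (adjusted p up to 0.0611). Of the replication-independent genes, H1F0 and H2AFV (0.23, adjusted p = 0.0232) were higher, and H1FX, H2AFY2 and H3F3C (-0.20, adjusted p = 0.0358) were lower. The H2AFV call was lost without untreated parental replicate 3 or untreated SDS22-degron replicate 1 or 2 (adjusted p up to 0.107). That of H3F3C was lost without untreated parental replicate 2 or 3, treated parental replicate 1 or any untreated SDS22-degron replicate (adjusted p up to 0.147).

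Ranked by group mean, all 14 tested replication-dependent genes were lowest in untreated parental cells, as were 4502 of all 16657 tested genes. Of the 14, 13 were also highest in treated SDS22-degron cells, and 20% of all tested genes met both conditions. The exception was HIST1H4E, which was highest in untreated SDS22-degron cells. Of the 11 replication-independent genes 8 were lowest in treated SDS22-degron cells, against 34.1% of all genes. In 5 of the 14 replication-dependent genes, HIST1H2BC, HIST1H2BE, HIST1H2BJ, HIST1H2BN and HIST1H4E, the limit of 0.79 CPM was not met in every library of every group, so they passed the filter through the libraries where they are high. Libraries of the 2 groups compared did not overlap in 8 of the 14 with Dox/IAA in SDS22-degron cells (30.2% of all genes higher and 29.7% lower), 7 with Dox/IAA in parental cells (21.1% and 20.2%) and 7 between the untreated lines (21.6% and 21.9%), each of them higher. Over the 9 genes that met the limit in every library, 6, 7, 6 and 5 were called higher in the 4 pairwise comparisons in the order given here, and 0 lower.

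A cut-off modelled on that of the study, here the unadjusted quasi-likelihood p under 0.05 with a log2 fold change beyond 1 in either direction, kept fewer histone genes. Between the treated lines 4 replication-dependent genes were higher, where 3.25% of all genes were higher and 3.38% lower. It kept 4 with Dox/IAA in SDS22-degron cells (3.82% of all genes higher and 4.02% lower), 5 in parental cells (2.35% and 0.792%) and 2 between the untreated lines (2.84% and 1.3%), with 0 lower in each. In the interaction 0 histone genes passed, against 1.15% of all genes higher and 2.46% lower. Of the replication-independent genes only H2AFZ, lower, and H3F3A, on its few counts higher, passed it, both with Dox/IAA in SDS22-degron cells.

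The interaction asks whether Dox/IAA acted differently in SDS22-degron than in parental cells. Of the 14 replication-dependent genes 0 were higher and 1 lower in this test, where 6.03% of all genes were higher and 8.35% lower, and the median log2 difference was 0.04. The gene was HIST1H1C, with -0.86 ± 0.223 (log2, SE; adjusted p = 0.0141). HIST2H2BE had a difference of 0.06 (95% interval -0.70 to 0.82), HIST1H2AC 0.18 (-0.28 to 0.65), HIST1H3E 0.49 (-0.07 to 1.05) and HIST1H3H 0.70 (-0.04 to 1.44). HIST1H4E had -1.28 (-2.83 to 0.28, adjusted p = 0.27), on few counts. These intervals are wide, so the test did not show that both lines responded alike. HIST2H2BE, HIST1H2AC and HIST1H2BD were called higher between the treated lines, between the untreated lines and with Dox/IAA in each line. The other replication-dependent genes higher between the treated lines missed a call between the untreated lines, in parental cells, or in both. In this class a difference between the changes was shown for HIST1H1C only.

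In the replication-independent class the interaction was lower for 4 of 11 genes and higher for 0, all of them H2A variants. H2AFX had -0.92 ± 0.122 (log2, SE; adjusted p = 9.38e-05), H2AFZ -0.71 ± 0.170 (adjusted p = 0.00847), H2AFV -0.35 ± 0.103 (adjusted p = 0.0285) and H2AFY -0.28 ± 0.086 (adjusted p = 0.0341). The calls of H2AFX and H2AFZ held without any 1 library. That of H2AFV was lost without untreated parental replicate 3, treated parental replicate 2, untreated SDS22-degron replicate 1 or 2, or treated SDS22-degron replicate 2 or 3 (adjusted p up to 0.0884). That of H2AFY was lost without 9 of the 12 libraries in turn, all but untreated parental replicate 2, treated parental replicate 1 and treated SDS22-degron replicate 3 (adjusted p up to 0.106). H1F0 had -0.24 (adjusted p = 0.15). The copy H2AFZP3 gave -0.73 (adjusted p = 0.000406), close to H2AFZ itself.

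Genes that make, end and handle histone mRNA and protein were counted from lists of known members. Of 16 genes of histone mRNA synthesis and 3′ end processing, 13 were lower and 1 higher in treated SDS22-degron than in treated parental cells, where 23.1% of all tested genes were lower and 21.8% higher. With Dox/IAA 12 fell and 0 rose in SDS22-degron cells (25.5% and 26% of all genes), while 1 fell and 0 rose in parental cells (15.7% and 15.9%). Between the untreated lines 2 were lower and 0 higher in SDS22-degron cells (15% and 13.2%). The interaction was lower for 4 and higher for 0 (8.35% and 6.03%). The median log2 fold changes were -0.37, -0.37, -0.06, -0.12 and -0.26 in this order, where the medians of all genes were within 0.01 of 0. CDK2, the kinase that with cyclin E activates histone transcription through NPAT, had the smallest p in the interaction, with -0.73 (adjusted p = 0.00028). CCNE2, the gene of cyclin E2, had -0.96 (adjusted p = 0.00172) and CPSF2, a subunit of the complex that cleaves histone mRNA, had -0.35 (adjusted p = 0.0231). SLBP fell by 0.43 (adjusted p = 8.18e-05) with Dox/IAA in SDS22-degron cells, from 115.1 to 125.9 CPM to 85.25 to 93.4 CPM, and its interaction was -0.25 (adjusted p = 0.116).

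Of 24 histone chaperone genes, 17 were lower and 3 higher in treated SDS22-degron than in treated parental cells (all genes, 23.1% and 21.8%). With Dox/IAA 20 fell and 1 rose in SDS22-degron cells (25.5% and 26%), and 7 fell and 0 rose in parental cells (15.7% and 15.9%). The interaction was lower for 12 and higher for 0 (8.35% and 6.03%). ASF1B, a carrier of H3 and H4 to replicating DNA, had an interaction of -1.28 (adjusted p = 4.91e-05), CHAF1A, the large subunit of the assembly factor CAF-1, -0.99 (adjusted p = 0.000159) and HJURP, the chaperone of the centromeric H3 variant, -1.08 (adjusted p = 2e-04). In parental cells ASF1B, CHAF1A and HJURP changed by -0.06, -0.26 and -0.11 with Dox/IAA, none of which passed the test. Between the untreated lines 6 of the chaperone genes were lower and 1 higher in SDS22-degron cells (all genes, 15% and 13.2%).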

How the data were processed

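RNA of 12 libraries (4 groups of 3) was sequenced with stranded poly-A libraries and single reads. Per the file headers and values, the authors deposited unnormalized read counts for each gene, with its position, length and GC content in percent. The submitters' processing notes name cutadapt 1.15, Bowtie2 2.3.3.1, STAR 2.5.2b, SAMtools 1.5, featureCounts 1.5.3 and the build GRCh38; the annotation release and the handling of reads with several positions are not given in the sources used here. The labels call the libraries of a group biological replicates and do not say whether equal numbers share an experiment.

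Genes were filtered with filterByExpr (minimum count 10), and counts were TMM-normalized and fitted in edgeR 4.0.16 (R 4.3.3) with a mean per group. CPM values are TMM-normalized, and standard errors and intervals follow from each fold change and its F value. p was adjusted over all 16657 tested genes by the Benjamini-Hochberg method. Class sums and shares were given without a test. DESeq2 1.42.0, the likelihood ratio test, other scalings and filters, a cut-off on unadjusted p and fold change after the study's, a GC correction, the replicate number as a block, and leaving out each library served as alternatives. The fit recovered planted changes in simulated data. These were larger than most changes reported here and were planted only in genes of at least 1 CPM. The recovery of smaller changes or of lower genes was not tested.

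Named genes are all tested replication-independent genes, the 8 replication-dependent genes with the highest mean CPM, and up to 4 in each direction per comparison among those with an adjusted p under 0.05 and at least 1 CPM; for the list of pathway genes, the 3 with the smallest p in the interaction. SLBP and the remaining genes were named after their values were seen. The members and lists were chosen with earlier results of these data known. Stem-loops and untranslated regions were read from GENCODE transcripts, matched for 79 of the 88 rows. For some genes, such as HIST1H3G and HIST1H2AG, these differ from the annotation used for counting.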

Additional observations from a re-analysis of the deposited data

Results flagged for a closer look

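For 5 histone genes the change with Dox/IAA differed between the lines by the interaction term of the edgeR fit, with 3 libraries per group and p adjusted over all tested genes. HIST1H1C had an interaction of -0.865 (adjusted p = 0.0141), rising in parental cells by 1.14. H2AFX had -0.919 (adjusted p = 9.38e-05), H2AFZ -0.714 (adjusted p = 0.00847), H2AFV -0.35 (adjusted p = 0.0285) and H2AFY -0.282 (adjusted p = 0.0341). H2AFX, H2AFZ and HIST1H1C kept the call in all 12 fits that left out 1 library. The calls of H2AFV and H2AFY were lost in 6 and 9 of them.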

How the results depend on the processing

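In pairwise comparisons, replication-dependent genes were called lower only without a filter (HIST2H2AC, HIST1H1E, HIST1H3J and HIST1H2AB with Dox/IAA in SDS22-degron cells) and when 1 library was left out (HIST2H2AC, in 9 of 12 fits for SDS22-degron and 1 for parental cells); none of these genes passed the filter on all libraries. Several counts moved with the criterion. Under the cut-off on unadjusted p and fold change replication-dependent genes called were 4 between the treated lines, 4 with Dox/IAA in SDS22-degron cells, 2 between the untreated lines and 0 in the interaction, and replication-independent genes called were 0, 2, 0 and 0, with 0 for Dox/IAA in parental cells. Without a filter the median over replication-dependent genes with any count was 0.385 between the treated lines, 0.0851 with Dox/IAA in SDS22-degron cells, 0.322 in parental cells and -0.203 in the interaction, where 2 genes were called, HIST1H1C and HIST1H2AB, the latter on at most 4 counts per library. With scaling by library size or a GC correction, 1 replication-independent gene was called for Dox/IAA in parental cells. With at least 1 CPM in every library of a group, the replication-independent median between the untreated lines was 0.0128.

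Leaving out 1 library at a time gave 8 to 10, 7 to 11, 5 to 9 and 6 to 10 replication-dependent genes called between the treated lines, with Dox/IAA in SDS22-degron cells, in parental cells and between the untreated lines, and 1 in every interaction fit. Their medians were 0.767 to 0.993, 0.563 to 0.777, 0.509 to 0.782, 0.654 to 0.963 and -0.0976 to 0.225. Replication-independent genes called were 4 to 5, 5 to 6, 1 to 2, 3 to 5 and 2 to 4 in the interaction, with medians of -0.178 to -0.0856, -0.143 to -0.0348, -0.0625 to 0.0182, -0.124 to 0.0259 and -0.191 to -0.0465. The 4 libraries of number 3 were left out together, an alternative chosen after seeing the data because they have the highest replication-dependent sum. Then 7, 7, 7 and 6 replication-dependent genes were called in the pairwise comparisons and 0 in the interaction (log2 difference of HIST1H1C -0.907, adjusted p = 0.0695), while 2 replication-independent genes were called between the untreated lines and 1 in the interaction, H2AFX, with a median of 0.0363 for Dox/IAA in parental cells. This fit has fewer libraries.

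Same-numbered libraries deviated together in part (correlations of -0.0569 to 0.246 over 18 pairs, 7 above 0.1, and 11 of 12 libraries correlated best with one of their own number in another group), a hint from the data and not the design. When the replicate number entered as a block, 8, 10, 7, 8 and 1 replication-dependent genes and 5, 5, 2, 5 and 4 replication-independent genes were called in the 5 comparisons. Under the block H2AFY between the treated lines, HIST1H1C with Dox/IAA in SDS22-degron cells and HIST1H3E between the untreated lines were also called. Depth limits the class: 58 of 72 replication-dependent genes had too few counts to test.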
